A study of Mus musculus with 12 samples.

Results

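Retsat and 8 further genes of retinoid metabolism (Rbp4, Stra6, Rdh10, Aldh1a1, Aldh1a2, Aldh1a3, Crabp1 and Crabp2) were followed in spinal cord RNA, 9 of the 38924 genes in the files. Each gene was found by its name and had 1 row. The set was chosen by the levels of Retsat, which differ stepwise between mice, and the other 8 genes joined it for their function. Retsat levels are therefore described without a test. All 9 passed the filter on low counts, which left 17995 genes.

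Whole spinal cords of 12 mice were sequenced at an age of 1 week, before disease onset per the series title, with a separate library for each mouse. The groups were 3 female P278KY mice (4, 7 and 10), 3 male P278KY mice (3, 5 and 13), 3 female wt mice (1, 2 and 14) and 3 male wt mice (6, 9 and 19). P278KY is an allele of Gars, the glycyl-tRNA synthetase gene that the series title gives as heterozygous, and the labels name no Cre or transgene. All groups share the background B6J;CAST, a mixture of C57BL/6J with the wild-derived strain CAST. The labels do not say which alleles of either strain a mouse carried at any gene.

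Retinol, or vitamin A, travels in blood bound to the protein encoded by Rbp4 and enters cells through the receptor encoded by Stra6. Dehydrogenases such as that of Rdh10 turn retinol into retinal, and the retinaldehyde dehydrogenases of the Aldh1a genes turn retinal into retinoic acid, which Crabp1 and Crabp2 proteins bind inside the cell. The enzyme encoded by Retsat takes retinol on another path, reducing it to a dihydroretinol. In the developing spinal cord retinoic acid helps to pattern motor neurons, and the meninges are a known source of it.

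Library totals lay between 27713981 and 43219891 expected counts. Gars mRNA stood at 131 ± 7.36 CPM in P278KY and 124.5 ± 6.74 CPM in wt libraries (SD, n = 6 each), with overlapping ranges, and the allele alters the protein. Within labelled males it ran from 135 to 140 CPM in P278KY and from 117 to 121 CPM in wt. The library labelled male wt 19, whose sex marks disagree as given next, is among these wt libraries. The opposite order, all P278KY below all wt, held in labelled males for 5.85% of genes tested, and the share with the order of Gars was not counted. Within labelled females Gars ran from 121 to 128 CPM in P278KY and from 123 to 135 CPM in wt. Xist and Ddx3y, which mark female and male RNA, went against the label in 2 libraries, those labelled female wt 14 and male wt 19. Xist was at 0.533 CPM in the first, while the remaining 5 female libraries had 762 to 1113 CPM. Ddx3y was at 0.0233 CPM in the second, while the remaining 5 male libraries had 75.0 to 93.3 CPM. Summed sensory ganglion markers reached at most 7.56 TPM in P278KY libraries, and 117 TPM in the library labelled female wt 14. Markers of neurons, motor neurons (6 of 7 found), astrocytes and oligodendrocytes were all detected, with neuron sums of 2198 to 2637 TPM in P278KY and 2161 to 2852 TPM in wt libraries.

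These 2 promoters are printed because Retsat carries the difference between mice and Rbp4 leads the genes that varied together. Both come from the RefSeq table for GRCm38.p6, which held 6 of the 9 genes, and each runs from 250 bases before to 50 bases after the RefSeq start of transcription, 5′ to 3′ on the strand of the gene. They are the reference sequence and not that of these mice. Capitals mark a half-site of nuclear receptors in any of 4 spellings on either strand, which were AGGTCA together with AGTTCA, then GGGTCA together with GGTTCA.
Retsat, chr6:72598352-72598651, plus strand: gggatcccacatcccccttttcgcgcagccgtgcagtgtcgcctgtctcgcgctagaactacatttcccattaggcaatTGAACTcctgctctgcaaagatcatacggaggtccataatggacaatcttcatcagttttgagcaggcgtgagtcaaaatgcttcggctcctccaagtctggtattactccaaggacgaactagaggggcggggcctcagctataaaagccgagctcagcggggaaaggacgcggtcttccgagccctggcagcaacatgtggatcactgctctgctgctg
Rbp4, chr19:38125272-38125571, minus strand: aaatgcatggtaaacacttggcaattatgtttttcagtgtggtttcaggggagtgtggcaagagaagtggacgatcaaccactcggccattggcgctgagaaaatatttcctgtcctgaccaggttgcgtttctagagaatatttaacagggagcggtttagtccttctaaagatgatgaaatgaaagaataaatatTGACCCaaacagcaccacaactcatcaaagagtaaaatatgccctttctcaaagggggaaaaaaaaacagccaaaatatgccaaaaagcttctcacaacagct
Each of the 2 sequences held 1 half-site, as did 43.7% of the 32851 promoters in the table when counted as at least 1. Neither held a pair of half-sites in the same direction at a spacing of 1, 2 or 5 bases, an arrangement found in 0.222%, 0.268% and 0.0974% of promoters. In the Retsat sequence there was also 1 match to the core promoter motif TATAAA on either strand, which shared no base with the half-site and was found in 13.6% of promoters. The promoters of Stra6, Aldh1a1, Aldh1a2 and Crabp1 held no half-site of these spellings in their windows. For Stra6 the nearest of 4 RefSeq starts lay 65300 bases from the start of the gene position given below. That distance was 127 bases for Retsat and 40 bases for Rbp4.

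Retsat encodes retinol saturase and lies on chromosome 6 at 72598475 to 72608425 of GRCm38, plus strand (ENSMUSG00000056666). It stood at 1 of 2 levels, with no library between them. The upper level held 4 libraries, all wt, and the lower level held all 6 P278KY libraries with the other 2 wt libraries. Female P278KY 4, 7 and 10 had 8.31, 8.61 and 10.3 CPM, and male P278KY 3, 5 and 13 had 7.78, 9.46 and 7.84 CPM. Female wt 1 and 2 had 8.40 and 8.97 CPM, and 43.9 CPM was found in the library labelled female wt 14. Male wt 6 and 9 had 38.4 and 39.6 CPM, and 46.1 CPM was found in the library labelled male wt 19. Every male wt library thus lay above every P278KY library, while 2 of the 3 female wt libraries lay inside the P278KY range.

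**Figure D1:**
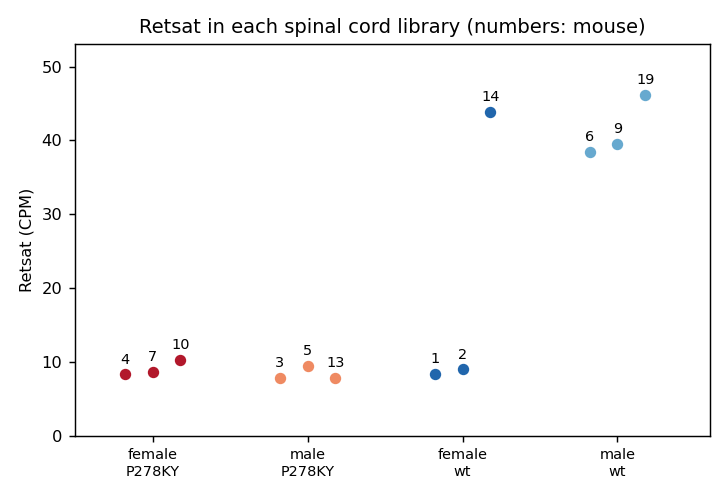
Retsat in CPM (vertical axis, from 0) for each of the 12 libraries, in 4 groups from female P278KY to male wt, with the mouse number above each point. Points fall between 7.78 and 10.3 CPM or between 38.4 and 46.1 CPM, and the upper points are all wt.

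Ordered by level, the step from female P278KY 10 to male wt 6 was 3.73-fold and took up 73.3% of the whole range. The next largest step, within the upper level, was 1.11-fold. In expected counts the lower level ran from 236 to 328 and the upper from 1118 to 1977. Per transcript length, Retsat ran from 5.38 to 7.28 TPM in P278KY libraries and from 6.34 to 38.1 TPM in wt libraries.

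Averaged by genotype, Retsat was 8.72 ± 0.991 CPM in P278KY and 30.9 ± 17.4 CPM in wt libraries (SD, n = 6 each), and these ranges overlap. The fitted log2 fold change, P278KY over wt, was -1.74 over all libraries, -1.17 in labelled females and -2.31 in labelled males. Without the 2 libraries whose sex marks disagree with their labels, both of the upper level, it was -1.18. Since these values chose the gene, no test is given. By genotype, 0.00556% of all genes tested (1 of 17995, Fgf21) were called, and in 0.222% (40 genes) all P278KY libraries lay on 1 side of all wt libraries. Retsat was not among those 40, because female wt 1 and 2 overlap the P278KY range.

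Retsat was chosen by expected counts and TPM, and TPM is computed with the abundance-weighted transcript length that the files give per library. The length is therefore not independent of that choice. The 5 transcripts the files list for Retsat span 433 to 3027 exonic bases in GENCODE M21. The weighted length was 2240, 2394 and 2612 bases in female P278KY 4, 7 and 10, and 1930, 2364 and 2639 bases in male P278KY 3, 5 and 13. It was 2492 and 2579 bases in female wt 1 and 2, and 2164 and 2125 bases in male wt 6 and 9, with 2250 bases in the library labelled female wt 14 and 2216 bases in that labelled male wt 19. The wt range lay inside that of P278KY. Its mean was 2363 ± 262 bases in P278KY and 2304 ± 186 bases in wt (SD, n = 6 each), and the difference of 58.9 bases gave p = 0.658 in an exact permutation test, two-sided, over 924 splits. The splits were by genotype and not by Retsat level. Within wt, libraries at the upper Retsat level had 2125 to 2250 bases and those at the lower level 2492 and 2579 bases. P278KY libraries, all at the lower level, ran from 1930 to 2639 bases. CPM does not use this length.

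Adipose tissue and liver are known sites of Retsat and Rbp4 expression, and their markers were measured beside Retsat. Summed adipocyte markers (6 genes, none at 0 throughout) ran from 16.0 to 209 TPM in P278KY and from 3.30 to 124 TPM in wt libraries. The highest sum, 209 TPM, was in male P278KY 3, which had the lowest Retsat level. At the upper Retsat level, the libraries labelled female wt 14 and male wt 19 had 124 and 95.1 TPM. Male wt 6 and 9, also at the upper level, had 10.3 and 26.3 TPM. Female wt 1 and 2, at the lower level, had the lowest sums of all libraries. Liver markers summed to between 6.75 and 22.7 TPM in P278KY and between 5.46 and 88.8 TPM in wt libraries, highest in male wt 6. Of the 16 marker sums, that of liver had the largest r with Retsat over the 12 libraries, 0.682 (0.655 without the libraries labelled female wt 14 and male wt 19). It was followed by choroid plexus at 0.584 (0.072 without these 2) and motor neurons at 0.528 (0.709 without them), while adipocytes had 0.193. For motor neurons rho was 0.462, and r was 0.330 without the library labelled female wt 14 alone. That library had the highest motor neuron sum, 268 TPM, and P278KY libraries had 82.0 to 119 TPM. It also had the highest sum of sensory ganglion markers, 117 TPM. The part of ganglion RNA in its motor neuron sum was not tested. Skeletal muscle markers, from tissue outside the cord, summed to between 78.8 and 2526 TPM in P278KY and between 8.26 and 969 TPM in wt libraries, with 6 of 6 higher in P278KY by fitted level and 0 called. The part of these other tissues in the Retsat levels was not tested. Fewer cells of a type and less RNA per cell cannot be told apart in whole tissue.

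Genes whose levels across the 12 libraries were most like those of Retsat were ranked by Pearson r on log2 CPM, as a description without p. All values come from the same libraries, and since every P278KY library is at the lower Retsat level, a gene that differs by genotype also ranks high. The 10 named genes had r between -0.941 and 0.925, none nearer to 0 than -0.849, and 7 predicted genes that ranked among them were passed over. Of the 10, 6 lie on chromosome 6, which holds 4.97% of the tested genes with a position. Among the 50 genes of largest absolute r, predicted ones included, 18 lie on chromosome 6. That share moved with the processing: on log2(TPM + 1) 2 of the 10 named genes lay on chromosome 6, and 2 did without the libraries labelled female wt 14 and male wt 19. It was 3 without male wt 6 and 3 without the library labelled female wt 14 alone.

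Pex7, the gene of a receptor that imports proteins into peroxisomes, stood closest and ran opposite to Retsat (r = -0.941, rho = -0.580; r = -0.954 without the 2 libraries farthest from the Retsat median, which were those labelled female wt 14 and male wt 19). It had 27.8, 26.9, 27.0, 26.2, 27.7 and 26.3 CPM in P278KY 4, 7, 10, 3, 5 and 13. It had 26.1, 24.7, 20.7, 19.6, 19.5 and 21.4 CPM in the libraries labelled wt 1, 2, 14, 6, 9 and 19. The 4 wt libraries with high Retsat were therefore those with the lowest Pex7, and wt 1 and 2 lay near the P278KY values. Pex7 is on chromosome 10.

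Zc3h12d, of a family of ribonuclease genes with a zinc finger and also on chromosome 10, ran with Retsat (r = 0.925), at 0.106 to 0.346 CPM in P278KY and 0.265 to 1.32 CPM in wt libraries. Rmnd1, a mitochondrial translation gene on the same chromosome, ran against it (r = -0.882). On chromosome 6, Lsm5 (r = 0.898), a subunit gene of an RNA-binding ring, lies 15.9 Mb from Retsat, and Gcfc2 (r = -0.886) lies 9.32 Mb away. Cbx3, a heterochromatin protein gene 21.1 Mb away, had r = -0.879, with 169 to 190 CPM in P278KY and 116 to 169 CPM in wt libraries. Sh2d6, Polr1a and Mat2a lie within 1 Mb, and Abhd13 on chromosome 8 had r = -0.849.

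Within 1 Mb of Retsat 26 other genes were tested, of which 7 (26.9%) had an absolute r over 0.7, against 1.38% of all tested genes. The number of neighbours was 7 without the libraries labelled female wt 14 and male wt 19, and 3 on log2(TPM + 1). The share of all tested genes was not counted in these settings, so whether the excess held there cannot be read. None of the 26 was called by genotype in edgeR (adjusted p = 1.00 for each). The nearest genes are Elmod3 (r = -0.753), 0.062 kb before Retsat, and Tgoln1 (r = -0.719), a gene of the trans-Golgi network, 0.007 kb after it. Both lie on the opposite strand, so that Elmod3 starts and Tgoln1 ends beside Retsat, and neither overlaps it. Mat2a, the gene of the enzyme that makes S-adenosylmethionine, had r = -0.849 at 159 kb. Its range was 192 to 197 CPM in P278KY and 176 to 196 CPM in wt libraries. Sh2d6 ran with Retsat (r = 0.885, 76.8 kb), at 0.126 to 0.220 CPM in P278KY and 0.143 to 0.560 CPM in wt libraries. Polr1a, the large subunit gene of RNA polymerase I, also ran with it (r = 0.859, 614 kb), as did the predicted gene Gm26628 (r = 0.892), whereas Reep1, a gene that shapes the endoplasmic reticulum, ran against it (r = -0.801). Other neighbours did not follow, such as Ggcx (r = 0.069) and Kcmf1 (r = 0.27), both chosen after their values were seen. Gars itself lies 17.5 Mb from Retsat on the same chromosome. Whether strain alleles at these genes differ between the mice was not tested, since the files hold no genotypes.

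**Figure D2:**
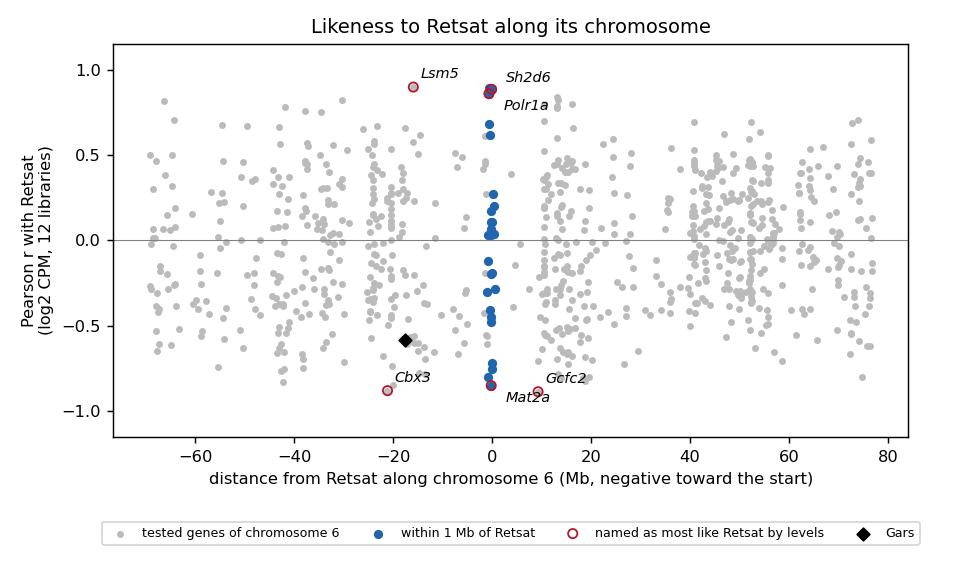
Pearson r with Retsat over 12 libraries (vertical axis) against distance from Retsat (horizontal axis, Mb) for tested genes of chromosome 6, with those within 1 Mb in blue, the 6 named on this chromosome ringed in red and Gars as a black diamond. The ringed genes lie between 21.1 Mb before and 9.32 Mb after Retsat, and 7 of the 26 blue points have an absolute r over 0.7.

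A second ranking used deviations from the 4 group means. Only the female wt group holds both Retsat levels, so this ranking rests on the library labelled female wt 14: without it, none of the 10 genes was named again. It led with Prox1 (r = -0.981), Zfp783 (r = -0.980), Myo1a (r = 0.978) and Piezo2 (r = 0.978), followed by Nup210, Pirt, Plcb3, Bcam, Isl2 and, last of the 10, Srp9 (r = -0.960). Piezo2, a touch channel gene, and Pirt, a sensory neuron gene, stood at 107 and 68.8 CPM in that library and at most 28.2 and 2.69 CPM in P278KY libraries. The sensory ganglion markers of that library, given above, move with these genes, and their part in the ranking was not tested.

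The other 8 genes were next compared by genotype, which asked whether the P278KY cords differ in retinoid uptake, synthesis or binding. In edgeR 0 of the 8 were called and 0 had an unadjusted p under 0.05, against 736 of the 17995 genes tested at that p. DESeq2 also called 0 of the 8, against 33 of the 17995 genes tested. Their fitted levels were lower in P278KY for 5 and higher for 3, with a median log2 fold change of -0.15, against -0.0064 over all genes tested, of which 53.1% had a lower fitted level. The P278KY and wt ranges overlapped for each of the 8. Without the libraries labelled female wt 14 and male wt 19, the fitted direction turned for 5 of them.

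**Figure D3:**
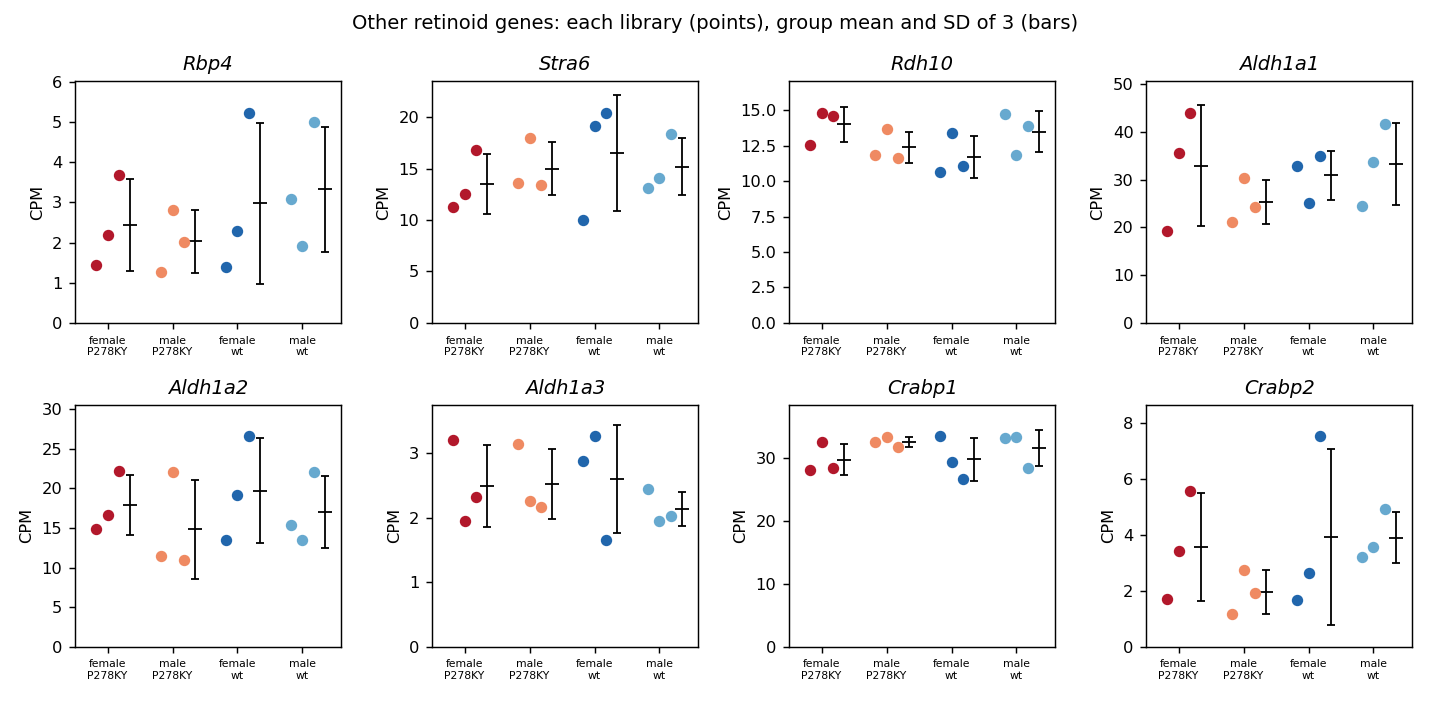
CPM of 8 retinoid genes (vertical axes, from 0), with 1 point per library in 4 groups from female P278KY to male wt and the group mean with SD of 3 libraries in black. Crabp1 points stay between 26.6 and 33.4 CPM, while Crabp2 points run from 1.17 to 7.53 CPM, and the genotypes overlap in every panel.

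Uptake came first. Rbp4, the plasma carrier gene, is on chromosome 19 at 38116629 to 38125281, minus strand. Its lowest, median and highest levels were 1.26, 2.11 and 3.68 CPM in P278KY and 1.40, 2.69 and 5.24 CPM in wt libraries. Only the wt libraries labelled 14 (5.24 CPM) and 19 (4.99 CPM) lay above every P278KY library. The fold was 0.706 (95% interval 0.405 to 1.23; edgeR adjusted p = 1.00), and its log2 value of -0.50 became 0.039 without these 2 libraries. Counts were low, at 40 to 214 per library.

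Stra6, the retinol receptor gene (chromosome 9, 58063788 to 58153996, plus strand), had 11.2, 13.5 and 18.0 CPM as lowest, median and highest in P278KY, and 10.1, 16.2 and 20.5 CPM in wt libraries. Female wt 1 was the lowest of all and the library labelled female wt 14 the highest, so the wt range enclosed that of P278KY. The fold was 0.898 (95% interval 0.685 to 1.18; edgeR adjusted p = 1.00). Stra6 shares 55036 bases with Ccdc33 on the other strand, and the strand setting of the counting is not given, so part of its count may belong to that gene.

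Rdh10 encodes the dehydrogenase that makes retinal from retinol in the embryo and lies on chromosome 1 at 16105774 to 16133734, plus strand. Its highest library was 1.40-fold above its lowest, close to the median range of 1.38-fold over genes averaging at least 1 CPM. It had 11.6, 13.1 and 14.8 CPM as lowest, median and highest in P278KY and 10.6, 12.6 and 14.7 CPM in wt libraries. The fold was 1.05 (95% interval 0.903 to 1.22; edgeR adjusted p = 1.00). By labelled sex the signs differed. In females it was 12.6, 14.8 and 14.6 CPM in P278KY 4, 7 and 10, and 10.6, 13.4 and 11.1 CPM in the libraries labelled wt 1, 2 and 14. In males it was 11.8, 13.7 and 11.6 CPM in P278KY 3, 5 and 13, and 14.7, 11.9 and 13.9 CPM in the libraries labelled wt 6, 9 and 19. Within females P278KY exceeded wt by 0.26 ± 0.12 on the log2 scale (SE; edgeR adjusted p = 0.469, not called). Within males the log2 value was -0.13 ± 0.12 (SE; edgeR adjusted p = 0.966). Their difference, female minus male, was 0.39 ± 0.17 (SE; edgeR adjusted p = 0.445) and was not called. Rdh10 was the 1 gene of the 8 whose interaction had an unadjusted p under 0.05 in edgeR, against 1967 of the 17995 genes tested. The split by sex includes wt 14 and 19, whose sex marks disagree with their labels, and a split by these marks was not tested.

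Among the retinaldehyde dehydrogenases, Aldh1a1 (chromosome 19, 20492715 to 20643465, plus strand) was the most abundant per transcript length, at 26.5 ± 8.86 TPM in P278KY and 29.9 ± 5.58 TPM in wt libraries (SD, n = 6 each). Aldh1a2 followed with 13.4 ± 4.04 TPM in P278KY and 15.4 ± 4.48 TPM in wt, and Aldh1a3 with 2.15 ± 0.614 TPM in P278KY and 2.16 ± 0.518 TPM in wt. The order of the 3 genes by mean was the same in both genotypes. By library, Aldh1a1 ran from 19.3 CPM in female P278KY 4 to 44.1 CPM in female P278KY 10, with wt libraries at 24.4 to 41.7 CPM inside that range. Its fold was 0.900 (95% interval 0.649 to 1.25; edgeR adjusted p = 1.00). Aldh1a1 shares 685 bases with the pseudogene Gm6684, and the split of reads between them is uncertain.

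Aldh1a2, the main retinoic acid synthase gene of the early embryo and of the meninges (chromosome 9, 71215789 to 71296243, plus strand), had 10.9, 15.8 and 22.2 CPM as lowest, median and highest in P278KY and 13.5, 17.2 and 26.6 CPM in wt libraries. The fold was 0.890 (95% interval 0.633 to 1.25; edgeR adjusted p = 1.00). Aldh1a3 (chromosome 7, 66390890 to 66427517, minus strand) had 1.95, 2.30 and 3.20 CPM in P278KY and 1.66, 2.24 and 3.27 CPM in wt libraries as lowest, median and highest. Its fold was 1.06 (95% interval 0.796 to 1.42; edgeR adjusted p = 1.00), and the library labelled female wt 14, highest for Aldh1a2, was lowest for Aldh1a3.

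The binding protein genes differed most from each other. Crabp1 (chromosome 9, 54764748 to 54773110, plus strand) was the most abundant of the 9 genes per transcript length, at 88.4 ± 6.27 TPM in P278KY and 89.1 ± 10.7 TPM in wt libraries (SD, n = 6 each). It was also the steadiest, with its highest library 1.26-fold above its lowest. Of the 15453 genes averaging at least 1 CPM, 72.6% had a larger range. Crabp1 had 28.1, 32.1 and 33.3 CPM as lowest, median and highest in P278KY, and 26.6, 31.2 and 33.4 CPM in wt libraries. The fold of 1.01 had the narrowest 95% interval of the 8 genes, 0.918 to 1.12 (edgeR adjusted p = 1.00).

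Crabp2 (chromosome 3, 87948666 to 87953376, plus strand), whose protein carries retinoic acid to its nuclear receptor, was scarce and varied most. Its lowest, median and highest levels were 1.17, 2.33 and 5.56 CPM in P278KY and 1.66, 3.39 and 7.53 CPM in wt libraries. The span was 6.46-fold, a range exceeded by 3.26% of the genes averaging at least 1 CPM, and wider than the 5.93-fold span of Retsat. Within labelled males all 3 P278KY libraries (1.17, 2.74 and 1.92 CPM in 3, 5 and 13) lay below all 3 libraries labelled wt (3.20, 3.58 and 4.92 CPM in 6, 9 and 19). Of all genes tested, 5.85% had such an order in males. Its log2 fold change within males was -1.01 ± 0.58 (SE; edgeR adjusted p = 0.948), against -0.14 ± 0.57 within females (SE; edgeR adjusted p = 0.964), and the difference of the effects was not called (edgeR adjusted p = 0.736). Over all libraries the fold was 0.675 (95% interval 0.361 to 1.26; edgeR adjusted p = 1.00), and its log2 value of -0.57 became -0.066 without the 2 wt libraries 14 and 19.

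**Figure D4:**
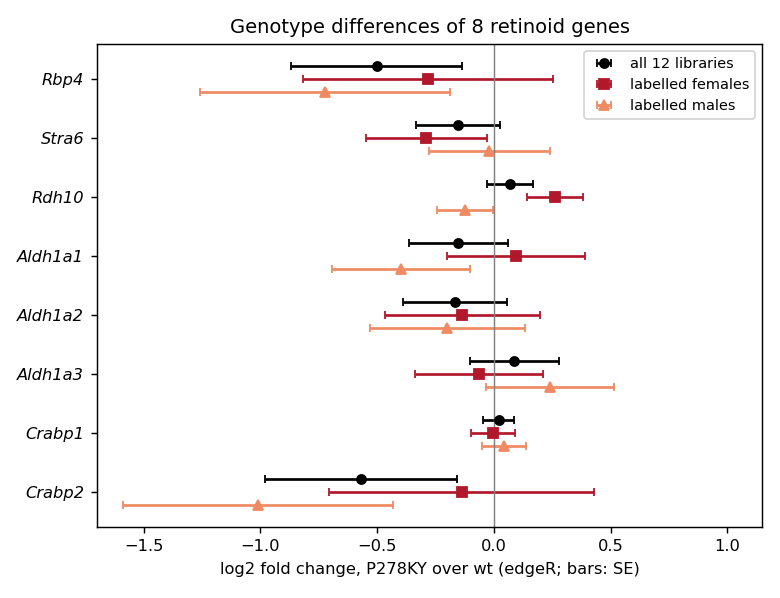
Log2 fold change of P278KY over wt (horizontal axis, edgeR, bars are SE) for 8 retinoid genes over all 12 libraries (black circles), in labelled females (dark red squares) and in labelled males (orange triangles). Crabp1 lies closest to 0 with the shortest bars, and Crabp2 in males lies farthest, at -1.01 ± 0.58.

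Within labelled females and within labelled males, edgeR called 0 of the 8 genes, with 0 at an unadjusted p under 0.05 in each sex. DESeq2 also called 0 in each, and its share over all genes was not counted within or between the sexes. Of all genes tested, 0% were called by edgeR in females, in males or for the interaction, with 1929, 884 and 1967 genes at an unadjusted p under 0.05. Between the sexes as labelled, 0 of the 8 were called by edgeR and 0 by DESeq2, and the 2 libraries with disagreeing sex marks are part of that comparison, where edgeR called 0% of all genes, with 827 at an unadjusted p under 0.05.

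Several of these genes varied together between mice. Over the 12 libraries, Rbp4 and Crabp2 had r = 0.909 and rho = 0.846 on log2 CPM, and r = 0.860 without the libraries labelled female wt 14 and male wt 19, the 2 farthest from the Rbp4 median. Rbp4 and Aldh1a2 had r = 0.832 (0.725 without these 2), and Aldh1a2 and Crabp2 had r = 0.804 (0.672 without them). Stra6 had r = 0.767 with Rbp4 (0.624 without them) and 0.766 with Aldh1a2 (0.637 without them), and Aldh1a3 ran against Crabp2 at r = -0.763 (-0.625 without them). Aldh1a1 ran with Crabp2 at r = 0.761 (0.753 without them). Rdh10 had r = 0.375 with Rbp4 and 0.367 with Aldh1a2 over the 12 libraries, and 0.788 and 0.710 without these 2. These are descriptions of 36 pairs, all from the same libraries, and carry no p. The library labelled female wt 14 was highest for Rbp4, Stra6, Aldh1a2 and Crabp2, and male P278KY 3 was lowest for Rbp4 and Crabp2. Rbp4, Stra6, Aldh1a2 and Crabp2 lie on chromosomes 19, 9, 9 and 3.

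**Figure D5:**
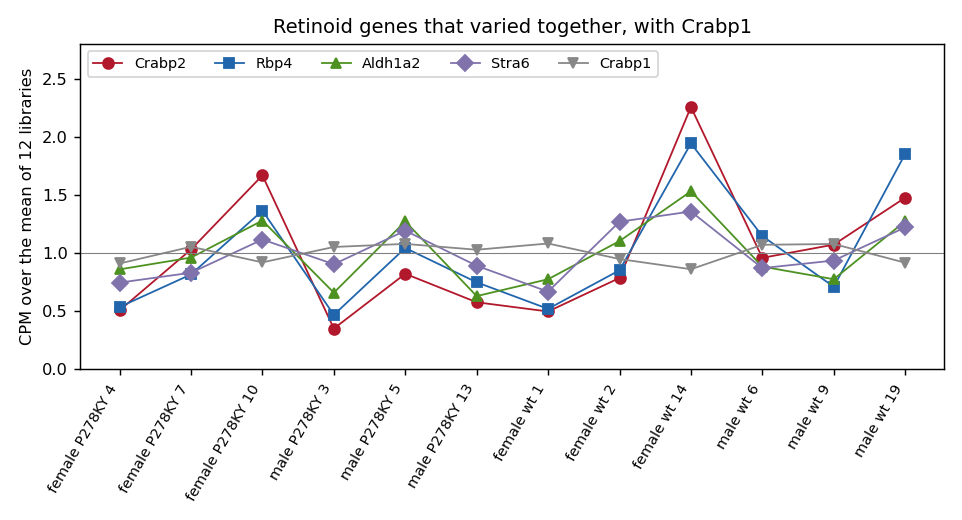
CPM of 5 genes divided by the mean of the 12 libraries (vertical axis) for each library from female P278KY to male wt (horizontal axis). Crabp2, Rbp4, Aldh1a2 and Stra6 all stand above 1 in female P278KY 10 and in the libraries labelled female wt 14 and male wt 19, while Crabp1 stays near 1.

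Markers of meninges and fibroblasts (8 genes, none at 0 throughout) were read beside Rbp4, Stra6, Aldh1a2 and Crabp2 because the meninges express Aldh1a2 and Crabp2. Their sum ran from 702 to 1339 TPM in P278KY and from 486 to 2063 TPM in wt libraries, highest in the library labelled female wt 14. Of the 8 markers 6 had a higher fitted level in P278KY and 0 were called, whereas these 4 retinoid genes had a lower fitted level. Without the libraries labelled female wt 14 and male wt 19, the fitted direction of Rbp4, Stra6 and Aldh1a2 turned, and that of Crabp2 did not. The correlation of the sum with Rbp4 was r = 0.606, with Crabp2 r = 0.568, with Stra6 r = 0.562 and with Aldh1a2 r = 0.548 over the 12 libraries. Without the library labelled female wt 14 these were 0.426, 0.346, 0.396 and 0.343. For each of these 4 genes, another marker sum had a larger r than that of meninges and fibroblasts. Microglia markers had r = 0.733 with Crabp2, 0.674 with Aldh1a2 and 0.651 with Rbp4, and 0.668, 0.594 and 0.563 without that library. Endothelium markers had r = 0.722 with Aldh1a2 and 0.674 with Rbp4, and red blood cell markers 0.599 with Stra6. Choroid plexus markers had r = 0.705 with Rbp4 (0.259 without the libraries labelled female wt 14 and male wt 19) and 0.591 with Stra6. Their sums were low, at 2.76 to 4.12 TPM in P278KY and 2.72 to 5.70 TPM in wt libraries, with Otx2 at 0 in every library, and highest in the libraries labelled male wt 19 (5.70 TPM) and female wt 14 (5.39 TPM). Aldh1a1 ran with sums of microglia (r = 0.856), oligodendrocyte (r = 0.830) and astrocyte markers (r = 0.796). The part of these cell types in the retinoid gene levels was not tested.

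The wider retinoid pathway was read from a list of 51 further genes, all found in the files, of which 40 were tested. By genotype edgeR called 0 higher and 0 lower, against 1 of all genes tested. DESeq2 called 0, against 33 of all genes tested. At an unadjusted p under 0.05 in edgeR were 2 of the 40 (Rbp2 and Meis1), against 736 of the 17995 genes tested. Without the library labelled female wt 14 the pathway count was 0, and over all libraries left out singly it ran from 0 to 3. The median log2 fold change was -0.037, with 16 higher and 24 lower fitted levels. By list, 1 of 6 tested transport genes, 0 of 3 ester and carotenoid genes, 7 of 16 oxidoreductases, 3 of 9 receptors and corepressors and 4 of 4 genes that respond to retinoic acid had a higher fitted level, with 0 called in each. Among the transport genes, Rbp2, a cellular retinol carrier gene of the gut, had a fold of 0.427 at only 0.177 CPM in P278KY and 0.426 CPM in wt. Stra6l, a second retinol receptor gene, had a fold of 0.615 at 0.468 CPM in P278KY and 0.761 CPM in wt. The retinol esterification gene Lrat had a fold of 0.856 and the carotenoid cleavage gene Bco2 a fold of 0.959.

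Among the 16 tested oxidoreductases of retinol and retinal, Aox1, an aldehyde oxidase gene, had 4.07 ± 1.00 CPM in P278KY and 5.13 ± 1.66 CPM in wt libraries (SD, n = 6 each), a fold of 0.784. Rdh16 had a fold of 0.857. Cyp26b1, which degrades retinoic acid, was the only tested gene of the 3 in its family, at 16.6 CPM in P278KY and 14.7 CPM in wt with a fold of 1.14. Of the 9 receptor and corepressor genes, Rxra had a fold of 0.954 and Rara a fold of 0.915. Meis1, a homeobox gene that retinoic acid induces, had 47.5 CPM in P278KY and 43.3 CPM in wt with a log2 fold change of 0.14, and Meis2 a fold of 1.03. Rlbp1, a retinal carrier gene of the visual cycle, had a fold of 0.989. None of these folds passed the threshold (edgeR adjusted p = 1.00 for each).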

How the data were processed

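Per the labels' protocols, poly(A) RNA of whole spinal cord was fragmented and sequenced paired-end on an Illumina instrument with stranded kits. The submitters' processing notes name Bowtie2 2.2.0 and RSEM 1.2.12. The sources used here give no genome build, annotation or strand setting. Each deposited file holds, per the file headers, an expected count (estimated fragments per gene), a TPM value, which the authors corrected for transcript length and library size, an FPKM value deposited but not used here, and an abundance-weighted transcript length.

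Expected counts were rounded, filtered with filterByExpr (17995 of 38924 genes kept) and scaled with TMM factors. CPM uses those totals, and log2 CPM a prior count of 2. P278KY was compared with wt by edgeR 4.0.16 quasi-likelihood in R 4.3.3 on the 12 libraries, with a term for labelled sex. Within-sex effects and the interaction came from 1 mean per group. Benjamini-Hochberg adjustment ran over all genes, with a threshold of 0.05. The procedure was tested on simulated data. Alternatives were DESeq2 1.42.0, limma 3.58.1 (voom, and log2(TPM + 1)), other scalings and filters, and left-out libraries. Gene positions were taken by Ensembl identifier from the GENCODE M21 annotation of GRCm38. The 10 genes most like Retsat by each ranking, neighbours with absolute r over 0.7, and the 2 pathway genes of smallest p per list were named by rule, predicted genes passed over in the rankings. The members and lists were chosen with earlier results of these data known. Each library is a separate mouse.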

Additional observations from a re-analysis of the deposited data

Results flagged for a closer look

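In 30 sets of 6 libraries of 1 genotype (the CPM and the weighted transcript length of each gene), 2 had a library far from the rest, where chance flags about 1 set in 20. Both were lengths. For Rbp4 male P278KY 5 had 969.9 bases, against 947 to 952 bases in the other P278KY libraries. For Crabp2 the library labelled female wt 14 had 926 bases, against 931 bases in all other libraries. Because those lengths were equal, any deviation would have been flagged, so the rate of 1 in 20 does not apply to this set. The P278KY lengths of Crabp2, all equal, are counted among the 30 sets but could not be flagged. No CPM set was flagged.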

How the results depend on the processing

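None of the 8 genes (by genotype, within sexes, for the interaction or for sex) and none of the pathway genes (by genotype) was called under any alternative run. Over all genes the genotype comparison gave 1 call, 33 with DESeq2, 2 without the sex term, 0 with a filter of CPM above 1 in 6 libraries (edgeR; 590 at an unadjusted p under 0.05), 0 without wt 14 and 19 together (edgeR; 1047), and 1 to 3 with each library left out, 3 without female wt 2 and 2 without female P278KY 10. On log2(TPM + 1), log2 fold changes of Aldh1a3 and Crabp1 turned to -0.010 and -0.0059. Without wt 14 and 19 together, those of Rbp4, Stra6 and Aldh1a2 turned to 0.039, 0.015 and 0.090, and those of Aldh1a3 and Crabp1 to -0.055 and -0.054. With single libraries left out, Aldh1a3 ran from -0.014 to 0.19 and Crabp1 from -0.015 to 0.063. The log2 fold change of Retsat ran from -1.97 to -1.33 with single libraries left out. The difference in its transcript length ran from 3.75 to 146 bases and was never called. As given above, that length is not independent of the choice of Retsat. Its splits were by genotype, so they do not compare the Retsat levels. Of the 10 genes most like Retsat, 4 were named again on log2(TPM + 1), 3 without wt 14 and 19 together, and 3 to 9 with single libraries left out; by deviations from group means it was 4, 0 and 0 to 8. Those named on chromosome 6 numbered 2, 2 and 3 to 6. Neighbours over absolute r 0.7 numbered 3 on log2(TPM + 1) and 6 to 9 with single libraries left out, with no all-gene share counted. The cause was not tested. No paired analysis was possible because each mouse number belongs to 1 group alone. Rbp4 and Crabp2 had the widest 95% intervals of the 8 genes, and differences of the sizes measured were not detectable there.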

Other observations

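Other genes of the second ranking also stood at separate levels between mice, but their division of the libraries as a whole differed from that of Retsat. Zfp783, a zinc finger gene on chromosome 6, had 11.1 to 12.6 CPM in P278KY libraries, against 20.6 and 19.8 CPM in female wt 1 and 2 and 11.1 to 12.2 CPM in the other 4 wt libraries. Srp9, a signal recognition particle gene on chromosome 1, had 36.6, 37.1 and 37.0 CPM in female P278KY 4, 7 and 10 and 52.0 to 55.1 CPM in male P278KY libraries. In wt it had 48.9 to 52.7 CPM in 5 libraries and 36.0 CPM in that labelled female wt 14. Among wt libraries, Zfp783 divided female wt 1 and 2 from the other 4, as Retsat did, but in the opposite direction. Female wt 1 and 2 thus stood with the P278KY libraries for Retsat and apart from them for Zfp783.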
